A study of Mus musculus with 16 samples.

Results

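Autophagy machinery genes encode the proteins that start, build and close the autophagosome and the lysosomal proteins that receive it. A list of 39 mouse genes, named by their place in the pathway, was followed across 16 arrays of sorted luminal cells of the mammary gland. The list was chosen with earlier results of these data known. Shares of its genes set beside shares of all genes are therefore descriptions and not tests of the list. For each gene, the brightest probe set on average was used among those that name that gene alone. Of the 39 genes, 34 had such a probe set, and 33 of these passed the filter on low signal, out of 14410 tested genes among 17097 genes on the arrays. The 5 without a single-gene probe set in the table used here are Atg4a, Atg4d, Map1lc3b, Sqstm1 and Optn, and Atg4c was below the filter. Map1lc3b encodes the LC3 protein most often used to follow autophagosomes and Sqstm1 encodes the receptor p62, so neither of these common readouts is covered by the values below.

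The arrays form 4 groups of 4, and replicate numbers only name arrays within a group, in accession order. The p38a-lox PyMT group carried p38a-lox, MMTV-Cre and MMTV-PyMT and was 6 weeks old. The PyMT group carried MMTV-Cre and MMTV-PyMT and was also 6 weeks old. The p38a-lox group carried p38a-lox and MMTV-Cre and was 9 weeks old, and the MMTV-Cre group carried MMTV-Cre alone and was 9 weeks old. All 4 groups therefore carried the Cre transgene. MMTV is a promoter active in mammary epithelium: it drives the recombinase meant to delete p38α, the MAP kinase that Mapk14 encodes and stress activates, and it drives the polyoma middle T antigen, which produces mammary tumours. Presence of PyMT and age cannot be told apart, because every PyMT group was younger than every group without it. The labels do not say that each array came from a separate animal, so p-values measure the spread between these samples.

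Autophagy begins when the ULK1 kinase complex, restrained by mTORC1 and activated by AMPK, switches on the class III PI3-kinase complex around Beclin 1. The lipid made there recruits WIPI proteins, and 2 ubiquitin-like conjugation systems then attach ATG8 proteins (the LC3 and GABARAP families) to the growing membrane, which ATG9 and ATG2 supply with lipid. The closed autophagosome fuses with the lysosome, whose supply of proteins is controlled by TFEB and its relatives. In the mammary gland autophagy is known for its part in cell survival and lumen formation, and the pathway is studied in PyMT tumours. Most of its control is on proteins, and transcript levels do not measure autophagic flux.

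Signals are log2 values as deposited. Correlations between arrays were 0.885 to 0.990, and the lowest median correlations with the other arrays, 0.934 each, belonged to p38a-lox replicate 2 and PyMT replicate 4. Of 11 tested luminal markers, Krt8 averaged between 12.17 and 12.38 in the 4 groups and Krt18 between 12.05 and 12.17. Krt19, Epcam and Cd24a averaged at least 10.76 in each group, but Kit only 5.75 to 7.23 and Foxa1 4.77 to 5.77. The basal marker Krt5 averaged 10.9 in p38a-lox PyMT, 10.4 in PyMT, 7.9 in p38a-lox and 8.2 in MMTV-Cre arrays. These levels do not measure the purity of the sort. Mapk14 measured 7.09, 7.25, 7.34 and 7.24 in p38a-lox PyMT arrays, against 7.17, 7.12, 7.64 and 6.88 in PyMT arrays (difference 0.03, exact two-sided permutation p = 0.886). Without PyMT it measured 6.79, 6.37, 7.91 and 8.16 in p38a-lox arrays, against 7.11, 7.43, 5.56 and 6.02 in MMTV-Cre arrays (difference 0.78, exact two-sided permutation p = 0.257). The smallest p that 4 arrays against 4 allow is 0.0286. The numbers in the array names fall into a lower range of 9 and a higher range of 7, which the labels do not explain. Within the lower range Mapk14 differed by -0.69 without PyMT and 0.12 with PyMT, and within the higher range by 2.24 and -0.35, so the sign turned between the ranges in both comparisons. The labels do not place the probe set relative to the deleted part, so its level checks nothing about the deletion, and every p38a-lox comparison rests on the labels.

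Members were called for PyMT and none for p38a-lox. Averaged over both p38a-lox states, 8 of the 33 tested members (24.2%) passed an adjusted p of 0.05 in the limma fit over all genes, where 6.18% of all tested genes did. Of these, 6 were lower with PyMT, where 2.51% of all tested genes were, and 2 were higher, where 3.67% were. The 6 lower members were Atg13, Atg101, Atg14, Ambra1, Atg4b and Gabarapl1, and the 2 higher were Lamp1 and Map1lc3a. The median log2 difference of the 33 members was -0.10, against 0.00 over all tested genes, and the calls lay in both directions. The number of calls dropped to 5 without p38a-lox replicate 1 and without p38a-lox PyMT replicate 2, 3 or 4. Sorted samples can hold other cells, and fewer cells of a type and less RNA per cell cannot be told apart.

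**Figure D1:**
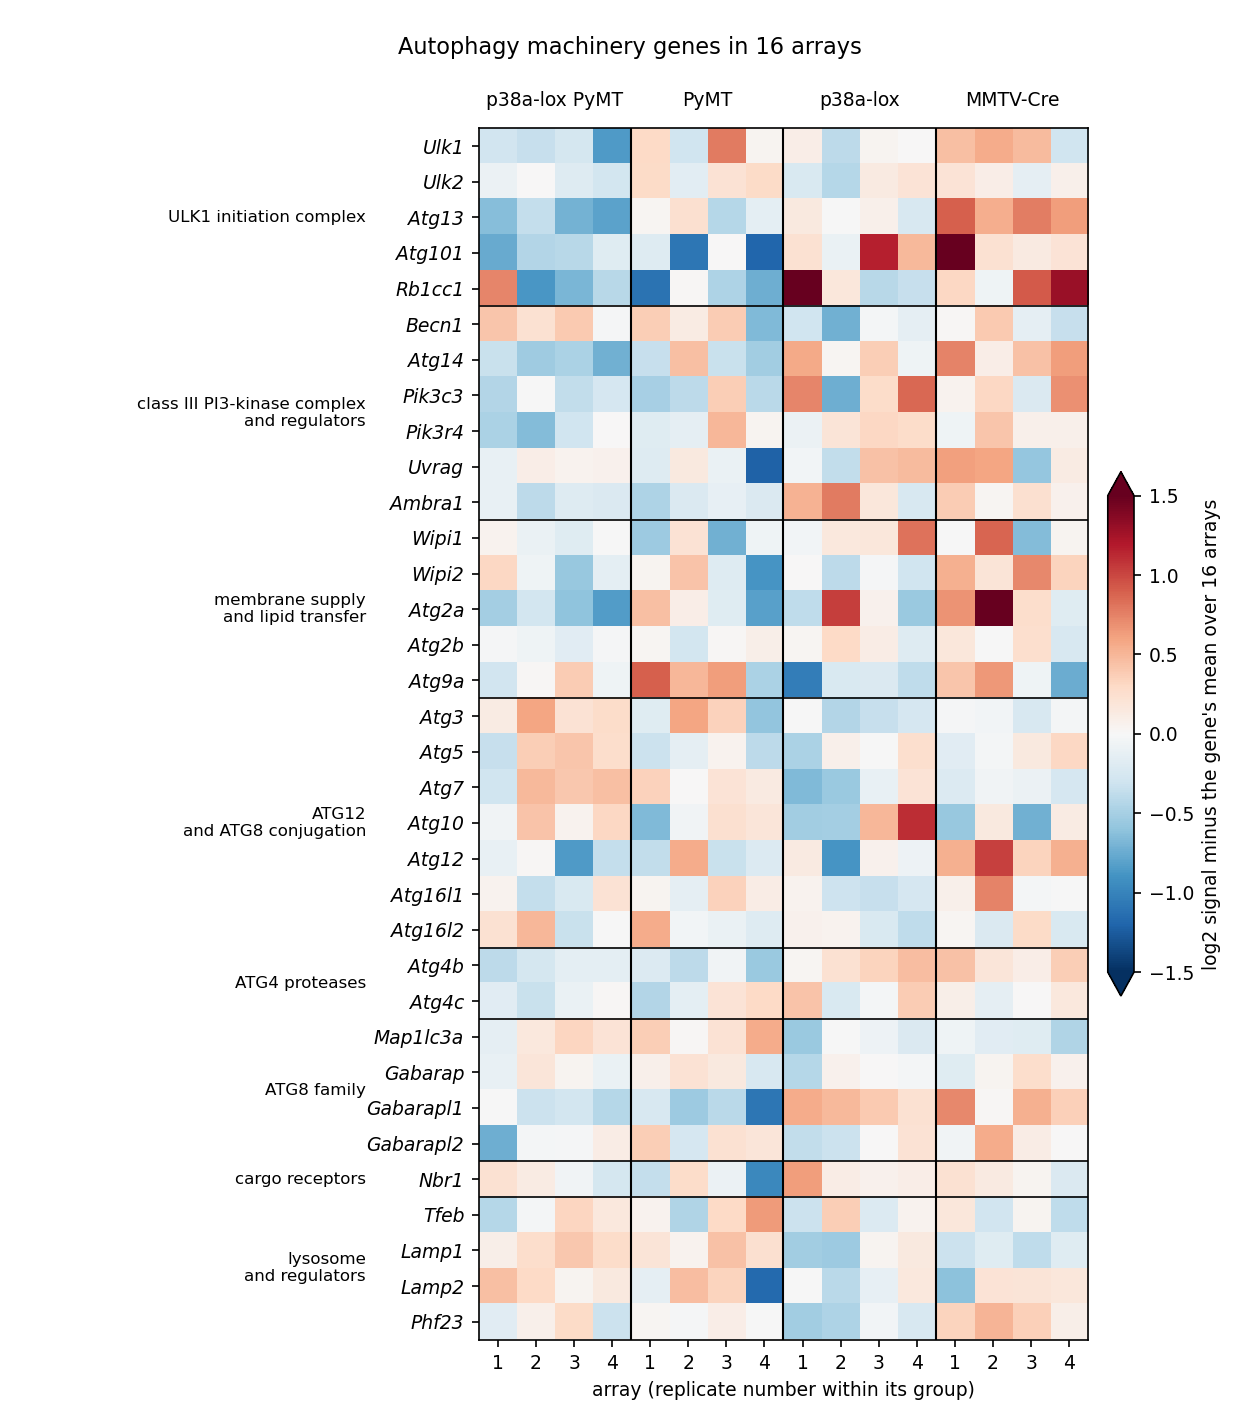
Log2 signal of the 34 members with a probe set, minus each gene's own mean over the 16 arrays, by array (columns, 4 per group) and by step of autophagy (row blocks). Atg4b and Gabarapl1 are below their mean in all 8 PyMT arrays and above it in all 8 others, Lamp1 is above its mean in all 8 PyMT arrays, and Atg13 has its highest 4 values in the MMTV-Cre arrays.

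At the initiation step, Atg13 and Atg101 fell with PyMT and the kinases themselves did not pass the test. Atg13 encodes the adaptor that holds ULK1 and FIP200 together. Its log2 signal was 6.63, 6.91, 6.55 and 6.46 in p38a-lox PyMT arrays and 7.30, 7.50, 6.83 and 7.11 in PyMT arrays, against 7.41, 7.26, 7.34 and 7.02 in p38a-lox arrays and 8.16, 7.81, 8.03 and 7.89 in MMTV-Cre arrays. The p38a-lox PyMT arrays had the lowest mean and the MMTV-Cre arrays were the 4 highest, with no overlap between either PyMT group and its counterpart without PyMT. The averaged log2 difference was -0.70 ± 0.11 (standard error), 1.63-fold lower, with adjusted p = 0.00216. A second Atg13 probe set gave -0.69 for the same difference.

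Atg101 encodes the partner that stabilises ATG13. It measured 7.59, 7.90, 7.93 and 8.16 in p38a-lox PyMT arrays and 8.14, 7.25, 8.34 and 7.15 in PyMT arrays, against 8.56, 8.23, 9.51 and 8.82 in p38a-lox arrays and 10.23, 8.57, 8.47 and 8.55 in MMTV-Cre arrays. Each PyMT array was lower than each MMTV-Cre array and each p38a-lox PyMT array lower than each p38a-lox array, by small gaps, and MMTV-Cre replicate 1 stood far above its group. The averaged difference was -1.06 ± 0.28, 2.09-fold lower (adjusted p = 0.0341), and -0.85 without MMTV-Cre replicate 1 (adjusted p = 0.0406). The call was lost, at adjusted p from 0.0502 to 0.0658, without p38a-lox replicate 1, 3 or 4, PyMT replicate 2 or 4, or any of the 4 p38a-lox PyMT arrays.

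Of the other initiation genes, Rb1cc1, which encodes the scaffold FIP200, had an averaged difference of -0.88 ± 0.33 with an adjusted p of 0.132, and its arrays spread from 3.32 to 6.08. Ulk1, the kinase that starts the pathway, had -0.23 ± 0.17 (adjusted p = 0.515), and its paralogue Ulk2 had 0.02 ± 0.11 (adjusted p = 0.956). In the initiation block 4 of 5 estimates were therefore negative, where 49.9% of all genes were. Of the 5, 2 passed as lower, where 2.51% of all genes did.

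**Figure D2:**
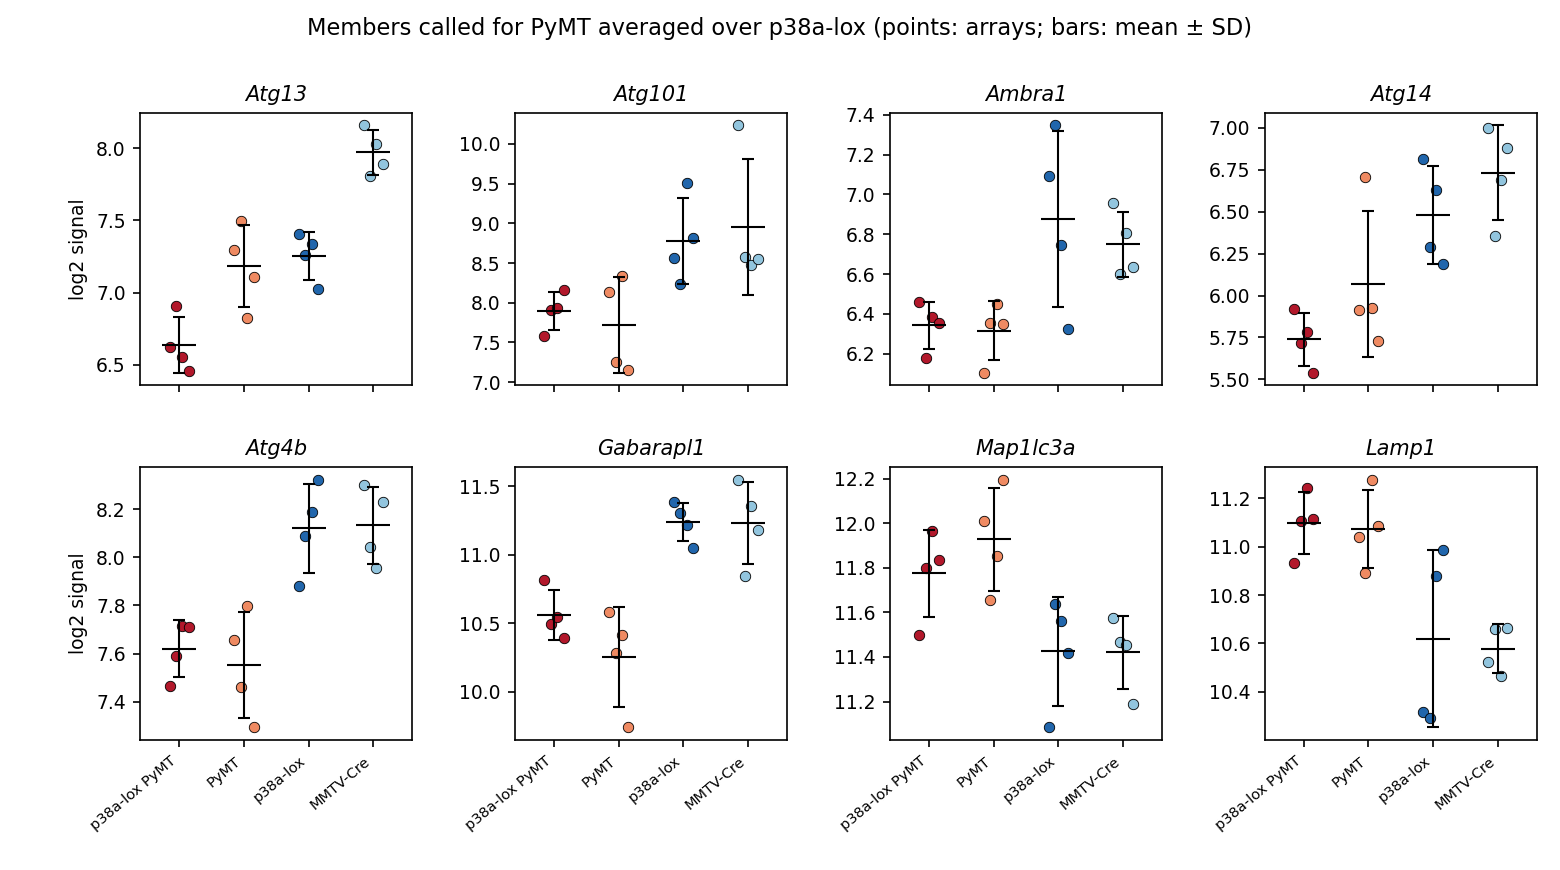
Log2 signal of the 8 members that passed the test for PyMT averaged over p38a-lox, by group (points are arrays, horizontal lines means, bars SD, n = 4 arrays per group; each panel has its own scale). Gabarapl1 and Atg4b separate all 8 PyMT arrays from all 8 arrays without PyMT, and the group means of Atg13 are lowest in p38a-lox PyMT and highest in MMTV-Cre arrays.

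In the class III PI3-kinase complex, Atg14 and Ambra1 fell with PyMT, and Becn1, which encodes the core protein Beclin 1, did not pass the test. Atg14 encodes the subunit that directs the complex to the forming autophagosome. Its signals were 5.92, 5.72, 5.78 and 5.54 in p38a-lox PyMT arrays and 5.91, 6.71, 5.92 and 5.73 in PyMT arrays, against 6.82, 6.29, 6.63 and 6.19 in p38a-lox arrays and 7.0, 6.36, 6.69 and 6.88 in MMTV-Cre arrays. PyMT replicate 2 lay among the arrays without PyMT, and the other 7 PyMT arrays were below all of those. The averaged difference was -0.70 ± 0.15, 1.63-fold lower (adjusted p = 0.0142). Ambra1 encodes a Beclin 1 partner that links the complex to ULK1. It gave 6.46, 6.18, 6.38 and 6.35 in p38a-lox PyMT arrays and 6.10, 6.36, 6.45 and 6.35 in PyMT arrays, against 7.09, 7.35, 6.74 and 6.33 in p38a-lox arrays and 6.96, 6.60, 6.81 and 6.63 in MMTV-Cre arrays. The 8 PyMT arrays lay in a narrow band, whereas the p38a-lox arrays spread widely and p38a-lox replicate 4 lay inside that band.

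The averaged difference of Ambra1 was -0.49 ± 0.13, 1.40-fold lower (adjusted p = 0.0379). It passed in 12 of 26 alternative settings, and leaving out 10 of the 16 arrays in turn (MMTV-Cre replicates 1, 3 and 4, p38a-lox replicates 1 and 2, PyMT replicates 1 and 4, p38a-lox PyMT replicates 2, 3 and 4) each gave an adjusted p from 0.0506 to 0.0858. Both other Ambra1 probe sets above the filter also had negative differences, -0.77 and -0.83. Becn1 had an averaged difference of 0.31 ± 0.17 (adjusted p = 0.333). Pik3c3, the lipid kinase itself, had -0.49 ± 0.22, its partner Pik3r4 had -0.30 ± 0.13 and Uvrag, the subunit of the endosomal form of the complex, had -0.32 ± 0.22, with adjusted p of 0.22, 0.205 and 0.481. Ambra1 and Atg13 are neighbours on chromosome 2 on opposite strands, with 1 coding gene, Harbi1, between them in RefSeq.

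Among the genes that supply membrane and lipid, 0 of 5 passed the limma test for PyMT, and 1 of them had an unadjusted p below 0.05, where 19.7% of all genes did. That gene was Atg2a, a lipid transfer protein, with an averaged difference of -0.67 ± 0.28 (adjusted p = 0.202). Wipi2, which binds the new lipid and recruits the conjugation machinery, had -0.27 ± 0.17, and its relative Wipi1 had -0.33 ± 0.20. Atg9a, the membrane protein of the seeding vesicles, had the opposite sign at 0.40 ± 0.23. Atg2b had -0.10 ± 0.10.

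Of the 7 genes of the conjugation systems, 5 had positive averaged differences for PyMT, where 50.1% of all genes did. By limma 0 passed, while 3 had an unadjusted p below 0.05, against 19.7% of all genes. Atg7, the activating enzyme shared by both conjugation systems, had 0.43 ± 0.14 (adjusted p = 0.0917), but its other probe sets above the filter gave -0.25 and 0.01, so its direction depended on the probe set. Atg3, the enzyme that passes ATG8 proteins to lipid, had 0.34 ± 0.15 (adjusted p = 0.208). Atg12, the ubiquitin-like tag joined to ATG5, had -0.41 ± 0.19 (adjusted p = 0.24). Atg10, Atg16l2, Atg16l1 and Atg5 had estimates of 0.11, 0.16, 0.02 and -0.02. Further Atg5 probe sets gave 0.75 and 0.01.

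The ATG8 family split. Gabarapl1, a GABARAP-type ATG8 gene, fell with PyMT, Map1lc3a, which encodes LC3A, rose, and Gabarap and Gabarapl2 did not pass. Gabarapl1 read 10.82, 10.49, 10.55 and 10.39 in p38a-lox PyMT arrays and 10.59, 10.28, 10.42 and 9.74 in PyMT arrays, against 11.38, 11.30, 11.21 and 11.05 in p38a-lox arrays and 11.55, 10.84, 11.36 and 11.18 in MMTV-Cre arrays. All 8 PyMT arrays lay below all 8 arrays without PyMT, the nearest being p38a-lox PyMT replicate 1 at 10.82 and MMTV-Cre replicate 2 at 10.84. The averaged difference was -0.83 ± 0.13, 1.77-fold lower (adjusted p = 0.00248), and a second probe set gave -1.18.

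Map1lc3a stood at 11.50, 11.80, 11.96 and 11.84 in p38a-lox PyMT arrays and 12.01, 11.65, 11.85 and 12.20 in PyMT arrays, against 11.09, 11.64, 11.56 and 11.42 in p38a-lox arrays and 11.57, 11.47, 11.45 and 11.19 in MMTV-Cre arrays. PyMT arrays exceeded all MMTV-Cre arrays, and p38a-lox PyMT replicate 1 lay among the p38a-lox arrays. The averaged difference was 0.43 ± 0.11, 1.35-fold higher (adjusted p = 0.0349), and 0.41 in a second probe set, which on its own did not pass (adjusted p = 0.609). Leaving out MMTV-Cre replicate 3 or 4, p38a-lox replicate 1, PyMT replicate 1 or 4, or p38a-lox PyMT replicate 2, 3 or 4 raised the adjusted p to between 0.0564 and 0.0815. Gabarap had 0.05 ± 0.10 (95% interval -0.17 to 0.27) and Gabarapl2 had -0.04 ± 0.15 (95% interval -0.36 to 0.28).

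Atg4b, the protease that trims ATG8 proteins before conjugation and frees them afterwards, also fell. It measured 7.46, 7.59, 7.72 and 7.71 in p38a-lox PyMT arrays and 7.66, 7.46, 7.80 and 7.29 in PyMT arrays, against 7.88, 8.09, 8.19 and 8.32 in p38a-lox arrays and 8.30, 8.04, 7.96 and 8.23 in MMTV-Cre arrays. Every PyMT array lay below every array without PyMT, and the 2 groups within each of these sets overlapped. The averaged difference was -0.54 ± 0.10, 1.45-fold lower (adjusted p = 0.00575). Its second, dimmer probe set gave -0.12. Atg4b and Gabarapl1 were the 2 members whose 8 PyMT arrays did not overlap the 8 others, 6.06% of the tested members, where 0.396% of all tested genes were lower without overlap.

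At the lysosomal end Lamp1 rose with PyMT. Lamp1 encodes an abundant glycoprotein of the lysosomal membrane. Its signals were 10.93, 11.10, 11.24 and 11.11 in p38a-lox PyMT arrays and 11.04, 10.89, 11.28 and 11.09 in PyMT arrays, against 10.32, 10.29, 10.88 and 10.99 in p38a-lox arrays and 10.52, 10.66, 10.46 and 10.66 in MMTV-Cre arrays. All 8 PyMT arrays lay above the 4 MMTV-Cre arrays, while p38a-lox replicate 4 lay among the PyMT values and p38a-lox replicate 3 just below them. The averaged difference was 0.49 ± 0.11, 1.40-fold higher (adjusted p = 0.0204). Lamp2, its relative, had 0.11 ± 0.21 (adjusted p = 0.854), with 0.87 and 0.20 in 2 further probe sets. Tfeb, the transcription factor that drives lysosomal genes, had 0.14 ± 0.17. Nbr1, the 1 cargo receptor that could be tested, had -0.27 ± 0.16 and -0.73 in a second probe set. Phf23, a PHD finger gene known from human cells as a negative regulator of autophagy, had -0.01 ± 0.11.

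Promoter windows of the called members were compared. RefSeq windows of build GRCm38.p6, from 250 bases before to 50 bases after the gene start, existed for 7 of the 8 called members, and Map1lc3a had none in the table. The windows were searched on both strands for the E-box CACGTG, which MiT/TFE and MYC-type factors bind, the longer lysosomal CLEAR element that contains it, the FOXO element TGTTTAC, the AP-1 element TGANTCA and the cyclic AMP element TGACGTCA. CACGTG was present in 2 of the 7 called windows (28.6%), in 5 of 32 windows of tested members (15.6%) and in 7.15% of all 32851 windows. None of the other 4 was found in the 7 called windows, where all windows held them at 0.326%, 3.65%, 7.81% and 1.79%. Lamp1 is shown because its window holds 4 E-boxes, Atg14 because it holds 1 and fell, and Atg13 and Gabarapl1 because they had the smallest p of the members and hold none. Capitals mark CACGTG.
Lamp1, chr8:13158911-13159210, plus strand: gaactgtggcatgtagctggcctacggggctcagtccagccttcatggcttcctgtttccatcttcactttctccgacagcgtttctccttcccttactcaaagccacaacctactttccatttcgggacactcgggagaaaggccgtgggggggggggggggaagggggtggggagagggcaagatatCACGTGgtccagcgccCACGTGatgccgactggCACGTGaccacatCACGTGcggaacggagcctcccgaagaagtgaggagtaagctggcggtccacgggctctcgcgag
Atg14, chr14:47568385-47568684, minus strand: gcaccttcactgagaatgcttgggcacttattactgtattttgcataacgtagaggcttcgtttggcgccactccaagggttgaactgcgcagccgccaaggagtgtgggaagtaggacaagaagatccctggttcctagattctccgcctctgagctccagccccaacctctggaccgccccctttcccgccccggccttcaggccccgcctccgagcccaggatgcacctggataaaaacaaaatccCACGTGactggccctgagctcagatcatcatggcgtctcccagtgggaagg
Atg13, chr2:91710543-91710842, minus strand: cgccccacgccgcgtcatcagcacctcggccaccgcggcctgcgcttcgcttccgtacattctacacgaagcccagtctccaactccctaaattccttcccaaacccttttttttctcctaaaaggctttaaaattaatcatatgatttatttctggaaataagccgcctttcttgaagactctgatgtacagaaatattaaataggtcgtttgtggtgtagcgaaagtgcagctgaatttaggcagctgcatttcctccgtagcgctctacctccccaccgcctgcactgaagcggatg
Gabarapl1, chr6:129532942-129533241, plus strand: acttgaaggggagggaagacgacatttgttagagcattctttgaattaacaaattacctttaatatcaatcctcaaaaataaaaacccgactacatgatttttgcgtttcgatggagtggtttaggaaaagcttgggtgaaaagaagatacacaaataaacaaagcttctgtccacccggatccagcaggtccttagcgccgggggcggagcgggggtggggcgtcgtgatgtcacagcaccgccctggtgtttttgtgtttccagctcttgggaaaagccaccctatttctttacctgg
The E-boxes of Lamp1 begin at bases 190, 206, 223 and 236 of the window, all within 61 bases upstream of the gene start, and that of Atg14 begins at base 250, the base before it. A match is a description of letters, and a window without one says nothing about the factor.

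Each PyMT comparison was next taken on its own. PyMT arrays against MMTV-Cre arrays gave 2 called members, both lower, 6.06% of those tested, where 1.26% of all genes were called and 0.382% were lower. These were Gabarapl1 at -0.98 ± 0.19 (adjusted p = 0.0228) and Atg13 at -0.79 ± 0.16 (adjusted p = 0.026). Gabarapl1 lost the call, at adjusted p from 0.0516 to 0.0684, without MMTV-Cre replicate 1, 3 or 4 or PyMT replicate 4, and Atg13, at 0.0594 to 0.0760, without those or PyMT replicate 1 or 3. Atg4b came next at -0.58 ± 0.14 (adjusted p = 0.0605). The count was therefore 0 or 1 without those arrays, and it was 0 when only these 8 arrays were fitted. Without overlap between the arrays, 5 members were lower (15.2%, against 2.65% of all genes) and 3 were higher (9.09%, against 4.44%). The 5 were Atg13, Atg101, Ambra1, Atg4b and Gabarapl1, and the 3 were Atg7, Map1lc3a and Lamp1.

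In p38a-lox PyMT arrays against p38a-lox arrays, 0 members were called by limma, where 0.777% of all genes were, and 12 had an unadjusted p below 0.05 (36.4%, against 12.2% of all genes). With weights for each array 7 were called. The smallest adjusted p was that of Atg13, 0.0815, at -0.62 ± 0.16. Without overlap 5 members were lower (15.2%, against 3.75%), namely Atg13, Atg101, Atg14, Atg4b and Gabarapl1, and 2 were higher (6.06%, against 4.41%), namely Becn1 at 0.55 ± 0.23 and Atg3 at 0.56 ± 0.21. Both of these had adjusted p above the threshold, 0.343 and 0.27.

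The PyMT difference without p38a-lox and that with p38a-lox share no array. Atg13, Atg101, Atg4b and Gabarapl1 were lower without overlap in both, 4 of 33 members (12.1%), where 0.659% of all tested genes were lower without overlap in both. The sign was the same in 27 of 33 members (81.8%), against 62.4% of all genes, and Pearson's r between the estimates was 0.79 across the 33 members and 0.63 across all genes. Both correlations run over genes of the same arrays, and such genes do not count as replicates. The members with opposite signs were Ulk2, Wipi2, Atg5, Atg16l1, Lamp2 and Phf23.

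**Figure D3:**
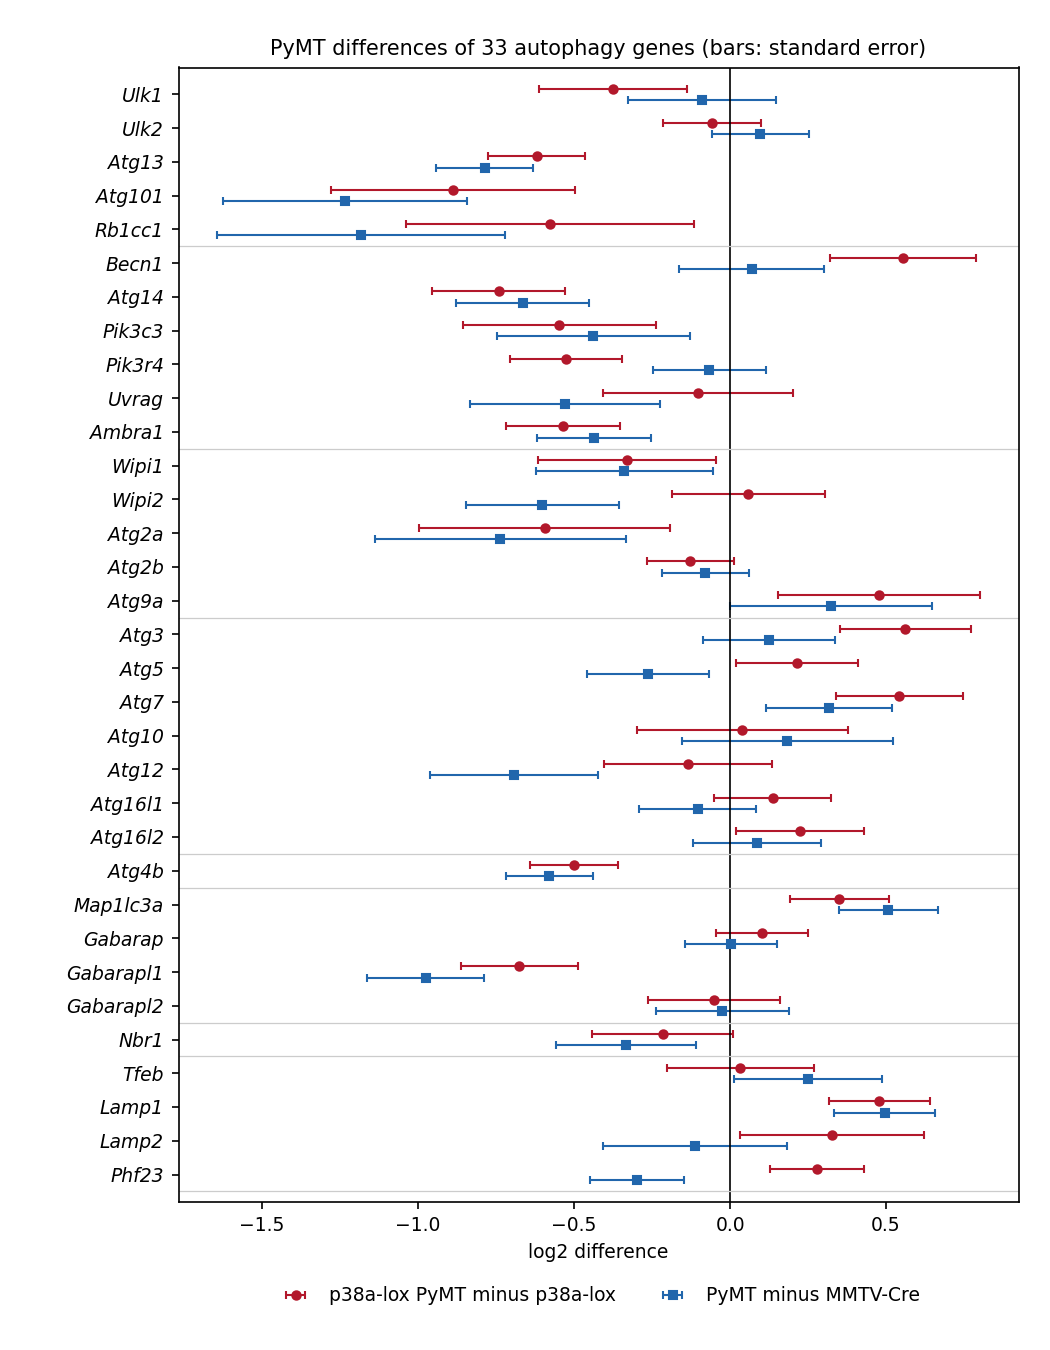
Log2 differences with their standard errors for PyMT minus MMTV-Cre (squares) and p38a-lox PyMT minus p38a-lox (circles) in the 33 tested members, in blocks by step of autophagy. Atg13, Atg101, Atg14, Ambra1, Atg4b and Gabarapl1 lie left of 0 in both comparisons, and Map1lc3a and Lamp1 lie right of 0 in both.

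Markers of other cells moved with the same contrast. Of 7 tested basal epithelial markers, 4 were called higher with PyMT and 0 lower, where 3.67% and 2.51% of all tested genes were. Among the 4 were Trp63 by 1.99 ± 0.28, Krt14 by 2.51 ± 0.47 and Krt5 by 2.59 ± 0.51. Of the 7 averaged estimates 6 were positive and 1, that of Oxtr, was negative. Oxtr averaged 5.08 in p38a-lox PyMT, 5.17 in PyMT, 5.37 in p38a-lox and 5.39 in MMTV-Cre arrays. The mean of the 7 ran from 7.64 to 8.50 in p38a-lox PyMT arrays and from 7.29 to 8.32 in PyMT arrays, against 5.44 to 7.51 in p38a-lox arrays and 5.83 to 7.80 in MMTV-Cre arrays. Of 10 immediate early genes, which respond to stimulation and to tissue handling, 5 were called higher, against 3.67% of all genes. Of their averaged estimates 8 were positive and 2 negative. The mean of the 10 ran from 8.77 to 9.51 in p38a-lox PyMT arrays and from 8.96 to 9.62 in PyMT arrays. It ran from 8.12 to 9.08 in p38a-lox arrays and from 7.69 to 8.69 in MMTV-Cre arrays. Of 4 fibroblast markers 1 was called higher, against the same 3.67%. In either direction 0 of 6 endothelial, 0 of 4 immune, 0 of 2 adipocyte and 0 of 11 luminal markers were called, against 6.18% of all genes.

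Of the arrays without PyMT, 2 had a basal mean inside the range of the 8 PyMT arrays, MMTV-Cre replicate 4 at 7.80 and p38a-lox replicate 4 at 7.51. In p38a-lox replicate 4, Atg13, Atg14, Ambra1 and Lamp1 were inside the range of the 8 PyMT arrays, and Atg101, Atg4b, Gabarapl1 and Map1lc3a were outside it. In MMTV-Cre replicate 4 all 8 called members were outside it. These positions rest on a single array each and are no separate test, since the members were called for differing with PyMT. The part of basal cells and of the immediate early genes in the members' differences was not tested. The ranges of array numbers split the same arrays that called the 8 members, so a sign kept within them is no separate test. The higher range holds a single array of the PyMT group. Gabarapl1 differed by -0.84 in the lower range and -0.76 in the higher, Atg13 by -0.62 and -0.90, Atg4b by -0.58 and -0.42, Atg14 by -0.65 and -0.81, Atg101 by -1.27 and -0.64, Ambra1 by -0.71 and -0.22, Lamp1 by 0.56 and 0.48, and Map1lc3a by 0.36 and 0.47.

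The p38a-lox comparisons called 0 members by limma, as they called 0 of all 14410 genes. Without PyMT, p38a-lox arrays against MMTV-Cre arrays gave 5 members with an unadjusted p below 0.05, all lower (15.2%, against 2.47% of all genes). Of the 33 estimates 22 were negative (66.7%, against 49.9%), and their median was -0.14 against 0.00. The 4 members lower without overlap were Atg13, Wipi2, Atg12 and Phf23 (12.1%, against 1.17%). With PyMT, p38a-lox PyMT arrays against PyMT arrays gave 3 members with an unadjusted p below 0.05, all lower (9.09%, against 2.51%), 0 without overlap (2.55% of all genes) and a median of 0.02 against -0.04. Averaged over both PyMT states, 5 members had an unadjusted p below 0.05, all lower (15.2%, against 3.28%), and 0 were without overlap (0.00694% of all genes).

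Among the members, Atg13 had the smallest p without PyMT, with PyMT and averaged. As the values given for it above show, p38a-lox arrays lay below every MMTV-Cre array, and p38a-lox PyMT arrays lay below the PyMT arrays except that p38a-lox PyMT replicate 2 exceeded PyMT replicate 3. The difference was -0.71 ± 0.16 without PyMT (adjusted p = 0.419) and -0.55 ± 0.16 with PyMT (adjusted p = 0.999). The averaged difference, -0.63 ± 0.11, had the second smallest p of all tested genes (unadjusted p = 4.32e-05, adjusted p = 0.299). It passed in 1 of the alternatives, weights for each array, at an adjusted p of 0.0306. In that fit p38a-lox replicate 3 had a weight of 4.36, against 0.41, 0.21 and 1.23 for p38a-lox replicates 1, 2 and 4. The second probe set gave -0.59 without PyMT, -0.31 with PyMT and -0.45 averaged. Within the lower and higher ranges of array numbers, the averaged difference of Atg13 was -0.59 and -0.55. Group means were 6.64 ± 0.19 in p38a-lox PyMT, 7.18 ± 0.28 in PyMT, 7.26 ± 0.17 in p38a-lox and 7.97 ± 0.15 in MMTV-Cre arrays (SD, n = 4 arrays each).

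**Figure D4:**
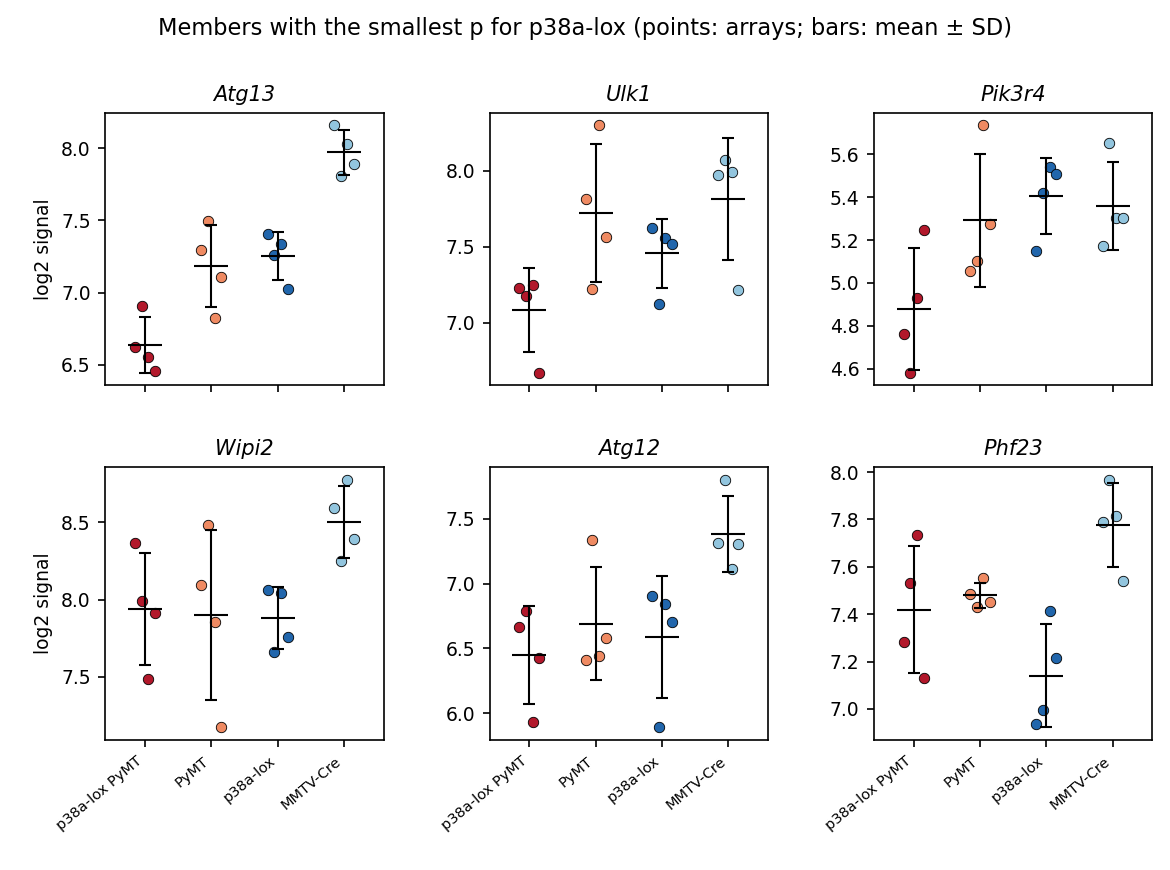
Log2 signal of the 6 members with the smallest p in the p38a-lox comparisons, by group (points are arrays, horizontal lines means, bars SD, n = 4 arrays per group; each panel has its own scale). The mean of Atg13 is lower in p38a-lox PyMT than in PyMT and in p38a-lox than in MMTV-Cre arrays, the group means of Wipi2, Atg12 and Phf23 are highest in MMTV-Cre arrays, and those of Ulk1 and Pik3r4 are lowest in p38a-lox PyMT arrays.

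Without PyMT, the next members were Phf23, Atg12 and Wipi2. Phf23 gave 7.28, 7.53, 7.74 and 7.13 in p38a-lox PyMT arrays and 7.48, 7.43, 7.55 and 7.45 in PyMT arrays, against 6.94, 7.0, 7.41 and 7.21 in p38a-lox arrays and 7.79, 7.97, 7.81 and 7.54 in MMTV-Cre arrays. The 4 p38a-lox arrays were below all MMTV-Cre arrays, and no array of the PyMT groups lay below the lowest p38a-lox or above the highest MMTV-Cre array. The difference without PyMT was -0.64 ± 0.15 (unadjusted p = 0.000736, adjusted p = 0.479). With PyMT it was -0.06 ± 0.15. Phf23 lies next to Gabarap on chromosome 11 with 0 coding genes between them, and Gabarap differed by -0.14 ± 0.15 without PyMT. Within the lower and higher number ranges, the Phf23 difference without PyMT was -0.91 and -0.36.

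Atg12 measured 6.66, 6.79, 5.93 and 6.42 in p38a-lox PyMT arrays and 6.41, 7.34, 6.44 and 6.58 in PyMT arrays, against 6.91, 5.89, 6.84 and 6.71 in p38a-lox arrays and 7.31, 7.80, 7.11 and 7.31 in MMTV-Cre arrays. MMTV-Cre arrays lay above all p38a-lox and all p38a-lox PyMT arrays, PyMT replicate 2 lay among them, and p38a-lox replicate 2 was the lowest of the 16. The difference without PyMT was -0.80 ± 0.27 (adjusted p = 0.833), and -0.78 in a second probe set. With PyMT it was -0.24 ± 0.27, and 0.00 in the second probe set. Wipi2 had 8.37, 7.99, 7.49 and 7.91 in p38a-lox PyMT arrays and 8.09, 8.48, 7.86 and 7.18 in PyMT arrays, against 8.06, 7.66, 8.04 and 7.76 in p38a-lox arrays and 8.59, 8.25, 8.78 and 8.39 in MMTV-Cre arrays. Each p38a-lox array was lower than each MMTV-Cre array, while the p38a-lox PyMT arrays lay within the range of the PyMT arrays. The difference without PyMT was -0.62 ± 0.25 (adjusted p = 0.963), with -0.33 and -0.58 in 2 further probe sets. Within the lower and higher number ranges, the difference without PyMT was -1.16 and -0.44 for Atg12 and -0.56 and -0.69 for Wipi2.

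With PyMT, Ulk1 and Pik3r4 followed Atg13. Ulk1 had 7.23, 7.18, 7.25 and 6.67 in p38a-lox PyMT arrays and 7.82, 7.22, 8.30 and 7.56 in PyMT arrays, against 7.62, 7.13, 7.56 and 7.52 in p38a-lox arrays and 7.97, 8.07, 8.00 and 7.22 in MMTV-Cre arrays. The lowest array was p38a-lox PyMT replicate 4, and PyMT replicate 2, p38a-lox replicate 2 and MMTV-Cre replicate 4 were as low as most p38a-lox PyMT arrays. The difference was -0.64 ± 0.24 with PyMT (adjusted p = 0.999) and -0.36 ± 0.24 without it (adjusted p = 0.999). A second, dimmer Ulk1 probe set gave -0.25 with PyMT and -0.38 without it, so which difference was larger depended on the probe set. Pik3r4 read 4.76, 4.58, 4.93 and 5.24 in p38a-lox PyMT arrays and 5.06, 5.10, 5.73 and 5.27 in PyMT arrays, against 5.15, 5.42, 5.54 and 5.51 in p38a-lox arrays and 5.17, 5.65, 5.30 and 5.30 in MMTV-Cre arrays. Only p38a-lox PyMT replicate 4 reached the values of the other 3 groups. The difference was -0.41 ± 0.18 with PyMT (adjusted p = 0.999) and 0.05 ± 0.18 without it. Within the lower and higher number ranges, the difference with PyMT was -0.33 and -1.34 for Ulk1 and -0.47 and -0.65 for Pik3r4, with a single PyMT array in the higher range.

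**Figure D5:**
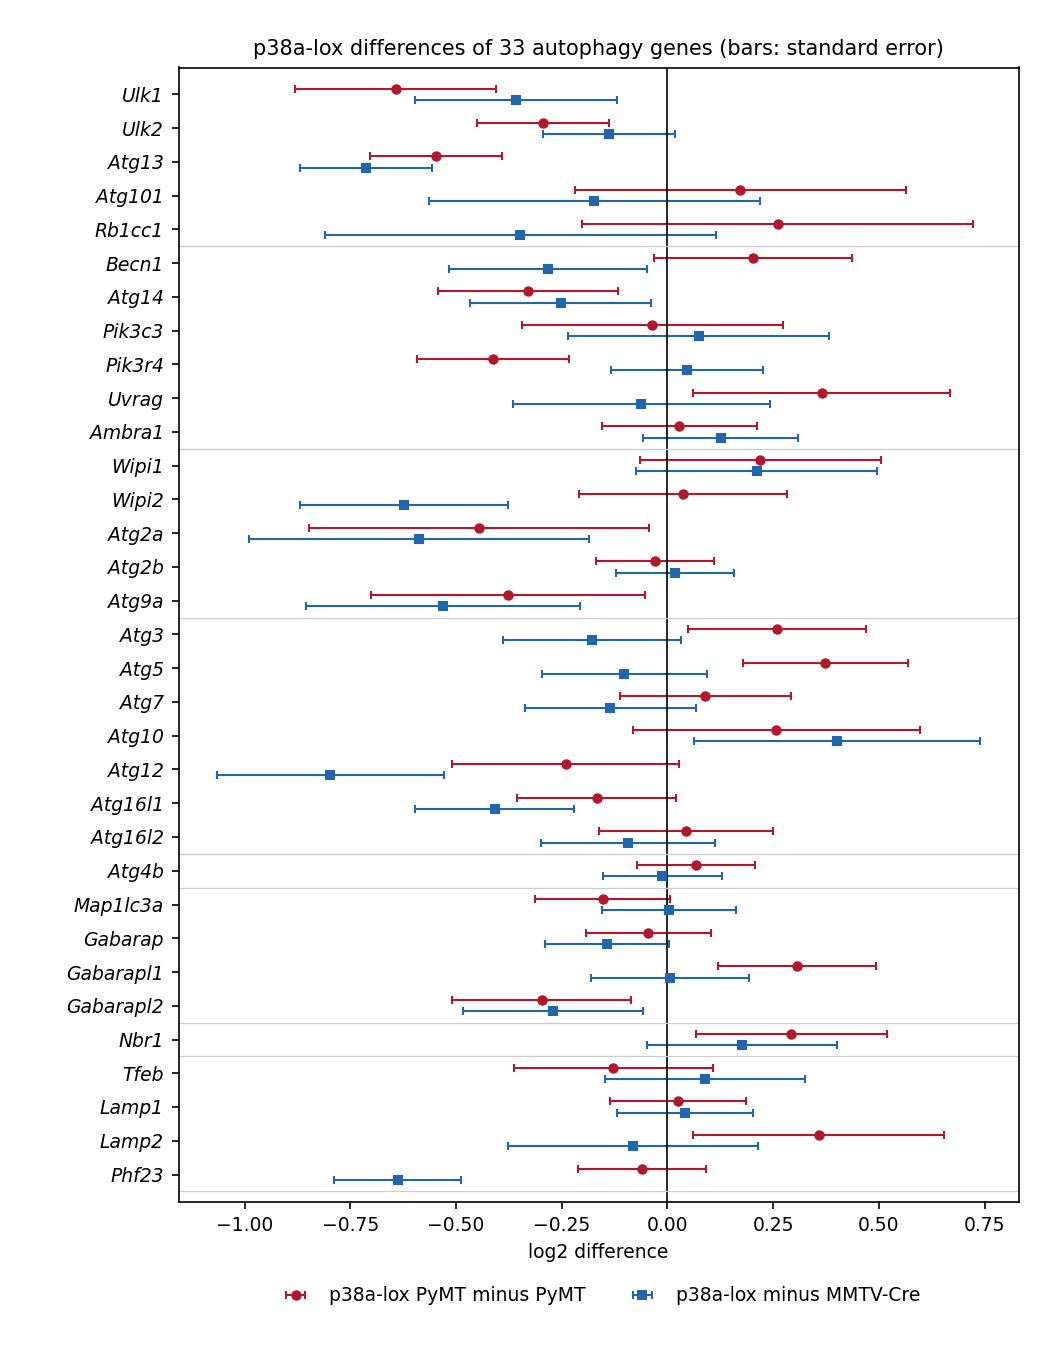
Log2 differences with their standard errors for p38a-lox minus MMTV-Cre (squares) and p38a-lox PyMT minus PyMT (circles) in the 33 tested members, in blocks by step of autophagy. Atg13 lies near the left edge in both comparisons, whereas Wipi2, Atg12 and Phf23 lie far left only in the comparison without PyMT and Pik3r4 only in the one with PyMT; the differences between the comparisons did not pass the test.

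The p38a-lox difference with PyMT minus that without PyMT was tested as an interaction. By limma 0 members were called, as 0 of all genes, and 1 had an unadjusted p below 0.05 (3.03%, against 2.82% of all genes). That member was Phf23, at 0.58 ± 0.21 (unadjusted p = 0.0162, adjusted p = 0.992). Wipi2 had 0.66 ± 0.35 and Pik3r4 had -0.46 ± 0.25, both with an adjusted p of 0.992. For Atg13 the interaction was 0.17 ± 0.22 (95% interval -0.30 to 0.64). The p38a-lox differences without and with PyMT, which share no array, had the same sign in 17 of 33 members (51.5%, against 49.4% of all genes), and r across genes was 0.49 for the members and 0.10 for all genes.

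Other genes of the pathway were taken as 5 lists, and the p38a-lox comparisons and the interaction called 0 genes of any of them by limma. The gene with the smallest p in each list without PyMT was Ddit4, an mTORC1 inhibitor, at -1.79 ± 0.55, Bnip3, a mitophagy receptor, at -1.20 ± 0.63, Gla, a lysosomal galactosidase, at -0.62 ± 0.29, Atp6v0d1, a subunit of the proton pump, at -0.45 ± 0.25 and Rubcn, a negative regulator of maturation, at -0.37 ± 0.19, with adjusted p from 0.749 to 0.999. With PyMT it was Tpp1, a lysosomal peptidase, at -0.52 ± 0.21, Plekhm1, a fusion adaptor, at -0.68 ± 0.42, Phb2, a mitophagy receptor, at 0.41 ± 0.24, Mtor at -0.24 ± 0.14 and Atp6v1d at 0.39 ± 0.27, each with an adjusted p of 0.999.

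With PyMT averaged over p38a-lox, 4 of 24 tested lysosomal hydrolases and membrane proteins were called higher and 0 lower, where 3.67% of all genes were called higher and 2.51% lower. Of the 24 estimates 22 were positive, against 50.1% of all genes, and their median was 0.33 against 0.00. Ctsd, which encodes cathepsin D, rose by 1.01 ± 0.21 (adjusted p = 0.0109), Asah1, acid ceramidase, by 1.16 ± 0.24 (adjusted p = 0.0119) and Cd68 by 1.75 ± 0.40 (adjusted p = 0.0175). Cd68 is also a macrophage marker, and the mean of the 4 immune markers ran from 4.70 to 4.96 in p38a-lox PyMT arrays and from 4.77 to 5.33 in PyMT arrays, against 4.61 to 5.02 in p38a-lox arrays and 4.69 to 4.81 in MMTV-Cre arrays. The part of immune cells in the Cd68 difference was not tested. Of 12 subunits of the vacuolar ATPase, the pump that acidifies the lysosome, 2 were called higher, against 3.67% of all genes: Atp6v0a1 by 1.11 ± 0.17 (adjusted p = 0.00161) and Atp6ap1 by 0.88 ± 0.24 (adjusted p = 0.0392). Atp6ap1 lost the call, at adjusted p from 0.0596 to 0.0869, without MMTV-Cre replicate 1, 3 or 4, p38a-lox replicate 1 or 2, PyMT replicate 1 or 3, or p38a-lox PyMT replicate 2, 3 or 4.

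Of 21 other genes of autophagosome formation and fusion, 0 were called higher and 2 lower, where 3.67% and 2.51% of all genes were. These were Zfyve1, which marks the membrane where autophagosomes form, at -0.86 ± 0.11 (adjusted p = 0.000736), and Vamp8, a fusion SNARE, at -0.66 ± 0.14 (adjusted p = 0.0122). Zfyve1 was also called on its own in PyMT against MMTV-Cre arrays, at -0.96 ± 0.16, and in p38a-lox PyMT against p38a-lox arrays, at -0.76 ± 0.16. Of 26 genes of mTORC1, AMPK and MiT/TFE control, 2 were called higher and 2 lower, against the same 3.67% and 2.51%. Tsc1, an mTORC1 inhibitor, differed by -0.53 ± 0.11, Sesn1, a nutrient-stress inhibitor of mTORC1, by -0.71 ± 0.18 and Prkab2, a regulatory AMPK subunit, by 0.86 ± 0.22. Tsc1 kept the call without each of the 16 arrays in turn but lost it in 2 other alternatives, with an adjusted p up to 0.364. Sesn1 lost the call, at adjusted p from 0.0513 to 0.0666, without MMTV-Cre replicate 1, p38a-lox replicate 1, PyMT replicate 1 or 3, or p38a-lox PyMT replicate 2, 3 or 4. Prkab2 lost it, at 0.0521 to 0.0709, without MMTV-Cre replicate 1, 3 or 4, p38a-lox replicate 1, 3 or 4, PyMT replicate 2 or 4, or p38a-lox PyMT replicate 3 or 4. Of 16 other selective receptors 0 were called by limma, and Tax1bp1 had the smallest p at -1.02 ± 0.31 (adjusted p = 0.0663).

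Calls in the separate PyMT comparisons were fewer. In PyMT against MMTV-Cre arrays, Zfyve1 and Atp6v0a1 were the genes called in these 5 lists, with Atp6v0a1 at 1.02 ± 0.23 (adjusted p = 0.0484). They were 1 of 21 formation and fusion genes and 1 of 12 ATPase subunits, where 1.26% of all genes were called. The other lists, of 16, 26 and 24 tested genes, gave 0. In p38a-lox PyMT against p38a-lox arrays, Zfyve1, Atp6v0a1 and Cd68 were called, with Atp6v0a1 at 1.21 ± 0.23 (adjusted p = 0.029) and Cd68 at 2.74 ± 0.56 (adjusted p = 0.0357). Each was the 1 call in its list, of 21, 12 and 24 tested genes, where 0.777% of all genes were called. Apart from Zfyve1 in PyMT against MMTV-Cre arrays, these calls depended on single arrays. In PyMT against MMTV-Cre arrays Zfyve1 passed without each of the 8 arrays, while Atp6v0a1 passed only without MMTV-Cre replicate 2, with adjusted p from 0.0544 to 0.147 otherwise. In p38a-lox PyMT against p38a-lox arrays, leaving out p38a-lox PyMT replicate 2, 3 or 4 lost all 3 calls, and p38a-lox arrays 2, 3 and 4 lost Zfyve1 when left out in turn (adjusted p up to 0.151), 1, 3 and 4 lost Cd68 (up to 0.134) and 1 and 2 lost Atp6v0a1 (up to 0.107).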

How the data were processed

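Sorted luminal mammary cells of 4 genotype groups were measured on Affymetrix arrays, 4 arrays a group, grouped by the labels. The deposited values are log2 probe set signals made with RMA, per the submitters' processing notes; no version, setting or annotation is stated in the labels or files. This method fits all arrays together and compresses low signals, and the number of arrays limits the precision.

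From the 45141 probe sets, each gene took the probe set naming only it with the highest mean, and genes below the 25th percentile of all probe sets (3.67) were left out. A 4-group model was fitted to 14410 genes with limma 3.58.1 in R 4.3.3 (lmFit, eBayes), and p-values were adjusted by Benjamini-Hochberg over all of them at 0.05. Differences are on the log2 scale, ± is the model's standard error unless SD is stated, and intervals are 95%. Values in every array are given for members called in any contrast (up to 8) and for the 3 of smallest p where fewer than 3 were called. From the other lists, up to 3 called genes per contrast are named, or that of smallest p. The members and all lists were chosen with earlier results of these data known.

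Alternatives changed the probe set, the filter, the variance model, the scaling, array weights, the arrays fitted, a covariate for the number range in the array names, and left out each array. The fit was tested on simulated data with known changes, drawn independently for each gene, 50 genes per size of change. For p38a-lox against MMTV-Cre, 28% of genes changed by 0.585 on the log2 scale were called, and 56% of those changed by 1. For PyMT averaged over p38a-lox the shares were 50% and 76%. Genes changed by 3 were all called. A difference below 1 that was not called can therefore have been missed.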

Additional observations from a re-analysis of the deposited data

Results flagged for a closer look

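In 11 of 140 groups of 4 arrays, over 35 genes, 1 array stood apart from the other 3 by Dixon's criterion, and chance marks about 1 in 20 groups. Atg101 was 10.23 in MMTV-Cre replicate 1, against 8.47 to 8.57 in the rest of that group. In the same array Lamp2 was low at 9.41, against 10.20 to 10.23. Ulk1 was low in p38a-lox PyMT replicate 4, at 6.67 against 7.18 to 7.25, and in MMTV-Cre replicate 4, at 7.22 against 7.97 to 8.07. In p38a-lox PyMT replicate 1, Atg7 was low at 7.16, against 7.86 to 7.95, and Gabarapl2 was low at 7.77, against 8.47 to 8.61. Ulk2 was 5.68 in PyMT replicate 2, against 6.06 to 6.13, and Pik3c3 was 5.35 in PyMT replicate 3, against 4.49 to 4.59. Nbr1 was 10.47 in p38a-lox replicate 1, against 9.90 to 9.95. Atg3 was 8.95 in MMTV-Cre replicate 3, against 9.15 to 9.17, and Atg16l1 was 6.89 in MMTV-Cre replicate 2, against 6.11 to 6.21.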

How the results depend on the processing

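For PyMT averaged over p38a-lox, 5 of the 8 called members passed in all 26 alternatives, namely Atg13, Gabarapl1, Atg4b, Atg14 and Lamp1, while Map1lc3a passed in 16, Atg101 in 15 and Ambra1 in 12. The count of 8 became 15 with array weights and ran from 5 to 8 when each array was left out. In PyMT against MMTV-Cre arrays, the count of 2 became 1 with a trended and robust variance, 9 with array weights, 0 with only the arrays compared and 0 without p38a-lox replicate 2 and PyMT replicate 4 together, and ran from 0 to 3 when each array was left out. Array weights gave 7 in p38a-lox PyMT against p38a-lox arrays and 1 for p38a-lox averaged over PyMT. The weights were uneven, from 0.21 in p38a-lox replicate 2 to 2.92 in PyMT replicate 1 and 4.36 in p38a-lox replicate 3, so the weighted counts lean on few arrays. The members' median log2 difference ran from -0.28 to -0.0686 in PyMT against MMTV-Cre arrays when each array was left out. In p38a-lox PyMT against p38a-lox arrays it became -0.16 with array weights and -0.17 without both arrays, and ran from -0.17 to 0.016. That of the interaction became -0.0215 with array weights and ran from 0.00121 to 0.204. Of 1515 values for 67 gene results under alternatives, 1373 kept direction and side of the threshold, 123 lost the call, 18 gained it and 1 turned: Atp6v1e1 in the interaction, 0.157 with the probe set of largest SD, against -0.42. The cause was not tested. No paired analysis was possible because the labels give no replicate numbers: those used here follow accession order and pair nothing.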
